A study of Mus musculus with 8 samples.

Results

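The glutamate receptors and transporters considered here are 30 genes that encode AMPA, NMDA, kainate and delta receptor subunits, metabotropic receptors, the vesicular transporters, the neuronal transporter Slc1a1 and the AMPA auxiliary subunits Cnih2 and Cacng8. They were chosen by symbol among the 48709 genes listed in the files, and 28 of the 30 passed the filter on low counts and were tested with 16525 genes in all. RNA of the P3 cortex (postnatal day 3, dorsal telencephalon) was sequenced from 4 dcKO_hGFAP-Cre and 4 control samples on the C57BL/6J background. In dcKO_hGFAP-Cre mice (BAF155 fl/fl; BAF170 fl/fl; hGFAP-Cre pos/+) both scaffold subunits of the BAF chromatin remodelling complex, encoded by Smarcc1 and Smarcc2, are deleted where hGFAP-Cre acts. The sample titles call the other samples wild type, whereas the methods of the study describe its controls as BAF155 fl/+; BAF170 fl/+; Cre pos/+, so that these would carry Cre and 1 floxed copy of each gene. The hGFAP-Cre driver acts in radial glia of the dorsal telencephalon in the embryo and so reaches the cells derived from them, and the mutants die soon after birth.

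Glutamate is the main excitatory transmitter of the cortex. It is loaded into synaptic vesicles by vesicular transporters, opens AMPA, NMDA and kainate receptor channels on the receiving cell, and acts on metabotropic receptors that signal through G proteins on both sides of the synapse. Around birth cortical NMDA receptors are rich in the GluN2B subunit (Grin2b), and GluN2A (Grin2a) is added as synapses mature. Projection neurons of the cortex use mainly Slc17a7 (VGLUT1) as their vesicular transporter, and neurons of the thalamus and midbrain use mainly Slc17a6 (VGLUT2).

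Of the 28 tested members, 18 passed the test (edgeR's quasi-likelihood F test, Benjamini-Hochberg adjusted p under 0.05), 5 of them higher and 13 lower in the mutant. Over all 16525 genes, 37.5% were called, 18.6% higher and 18.9% lower, so that 64.3% of the tested members were called against 37.5% of all genes. The members were chosen with earlier results of these data known, and these shares are not matched for expression level. The difference between them is therefore no test of the members as a group. The median log2 fold change of the members was -0.25, against 0.024 over all genes. Kainate and NMDA subunits moved in both directions, Grik2, Grik1 and Grin2d being higher and Grin2a, Grin2b and Grik3 lower. Of the AMPA subunits 2 were higher and none lower. Of the metabotropic receptors tested, 4 of 6 were lower and none higher, and 2 of 3 vesicular transporters were lower. In 17 of the 28 members the dcKO_hGFAP-Cre and control samples did not overlap in normalised read count (CPM, counts per 1000000 of a library size scaled by TMM, the trimmed mean of M values), which held for 34.4% of all genes. An exact two-sided permutation test gave p = 0.0286 for each of these 17, the smallest value that 4 samples against 4 allow. Groups that do not overlap always give this value, so it adds nothing to the separation.

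**Figure D1:**
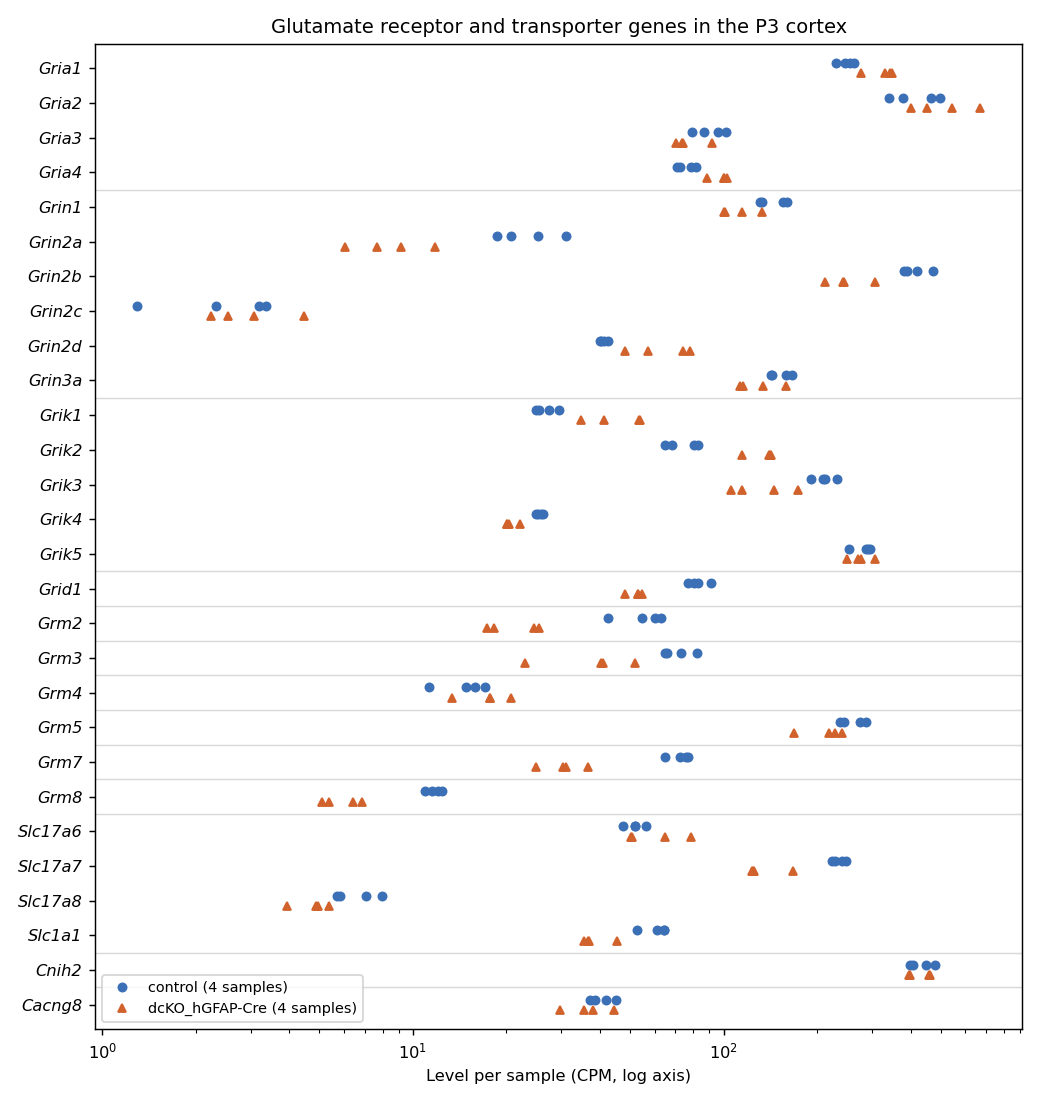
Level of each of the 28 tested members in each sample (CPM, log axis), with control samples as circles and dcKO_hGFAP-Cre samples as triangles, and grey lines between gene families. The groups are apart for 17 members, 12 with the dcKO_hGFAP-Cre samples below and 5 with them above the control samples.

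**Figure D2:**
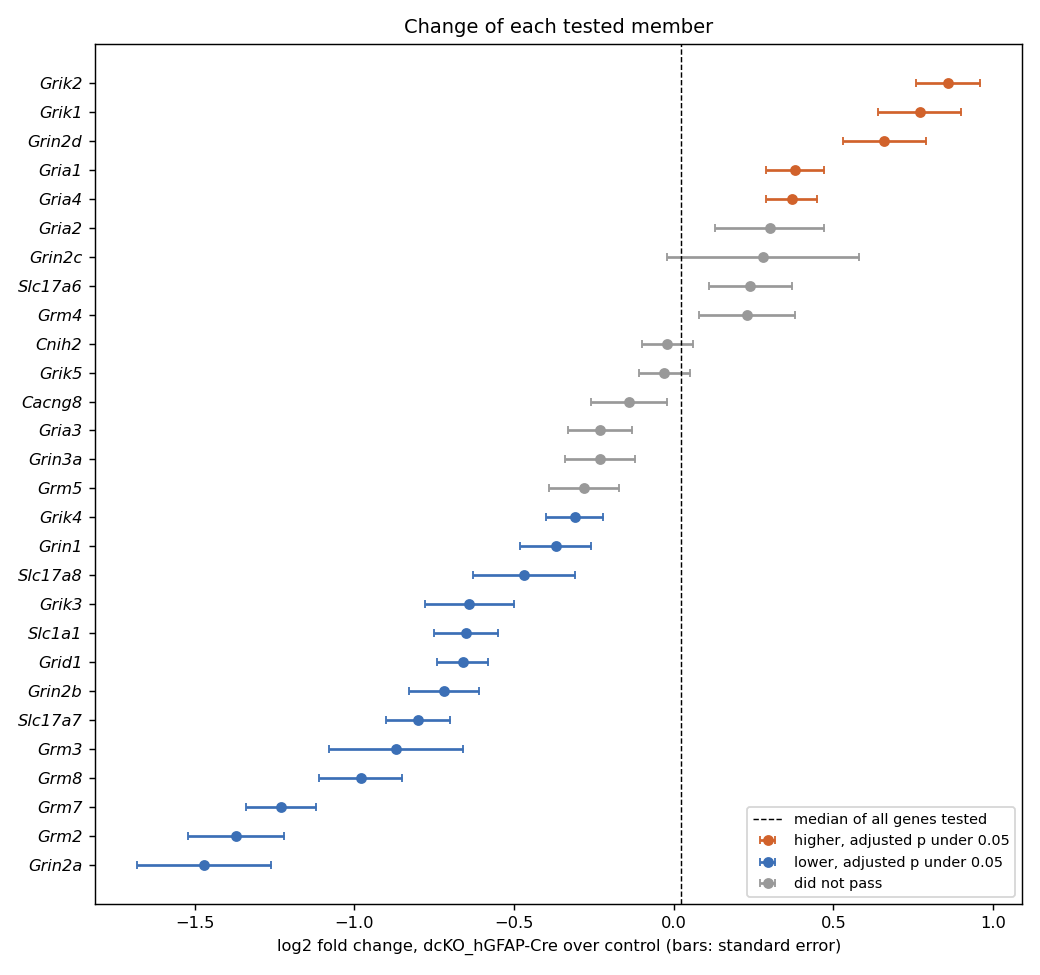
log2 fold change of each tested member, dcKO_hGFAP-Cre over control, ordered by size, with its standard error. The values run from -1.47 for Grin2a to 0.86 for Grik2, and the dashed line at 0.024 is the median of all genes tested.

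Smarcc1, the gene of BAF155, averaged 159 ± 11.2 CPM in the control and 81.2 ± 5.90 CPM in the dcKO_hGFAP-Cre samples (SD, n = 4 each), and Smarcc2, the gene of BAF170, had 483 ± 14.7 and 283 ± 28.2 CPM (SD, n = 4 each). Both were lower in every dcKO_hGFAP-Cre sample than in every control sample. Total counts ranged from 21126713 to 32110285 per sample, and 3 counts corresponded to 0.0906 to 0.148 CPM. In 2 dcKO_hGFAP-Cre samples, replicates 1 and 2, the choroid plexus transcript Ttr was at 584 and 1130 CPM, against 1.72 to 15.8 CPM in the other 2 and at most 9.37 CPM in control samples. In replicate 3 the astrocyte transcript Gfap was at 273 CPM, against 24.2 to 32.2 CPM in the other dcKO_hGFAP-Cre samples and 79.3 to 89.5 CPM in control samples. Mitochondrial genes took 2.06 to 3.23% of counts in control and 3.57 to 5.47% in dcKO_hGFAP-Cre samples, without overlap, and the part of this difference in the values given here was not tested. Since the samples are bulk tissue, fewer cells of a type and less RNA per cell cannot be told apart in any value given here. The labels do not say that the samples of a group are separate animals, so p-values measure the spread between these samples.

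To show the sequence just before genes that moved, 250 bases upstream of the annotated start are given for the 5 members below (RefSeq, GRCm38.p6). Among called members whose most upstream window lay clear of every exon of GENCODE M21, Gria4 was the only riser, and Grm2, Grm7, Grm3 and Slc17a7 were the 4 with the largest falls. Grm8, which fell by more than Grm3, was clear only in a window further downstream and is not shown. They lie at chr9:4796235-4796484 (Gria4, minus strand), chr9:106656110-106656359 (Grm2, minus strand), chr6:110645262-110645511 (Grm7, plus strand, the upstream one of 2 starts), chr5:9725353-9725602 (Grm3, minus strand) and chr7:45163671-45163920 (Slc17a7, plus strand). Each runs 5′ to 3′ towards the gene, and capitals mark the GC box GGGCGG on either strand, the short motif known for binding factors of the Sp family.
Gria4: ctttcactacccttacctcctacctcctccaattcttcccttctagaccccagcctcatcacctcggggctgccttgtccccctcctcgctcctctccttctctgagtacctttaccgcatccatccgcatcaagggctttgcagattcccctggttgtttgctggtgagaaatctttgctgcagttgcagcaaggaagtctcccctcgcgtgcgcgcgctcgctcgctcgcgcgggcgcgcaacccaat
Grm2: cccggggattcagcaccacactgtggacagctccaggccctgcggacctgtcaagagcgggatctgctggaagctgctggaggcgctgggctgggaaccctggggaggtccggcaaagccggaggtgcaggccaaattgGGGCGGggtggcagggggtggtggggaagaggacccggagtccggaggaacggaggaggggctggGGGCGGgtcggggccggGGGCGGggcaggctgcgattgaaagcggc
Grm7: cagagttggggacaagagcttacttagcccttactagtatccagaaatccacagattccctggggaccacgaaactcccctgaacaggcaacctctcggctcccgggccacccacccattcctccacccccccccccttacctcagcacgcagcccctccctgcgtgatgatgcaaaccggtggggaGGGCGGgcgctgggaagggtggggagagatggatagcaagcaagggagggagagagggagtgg
Grm3: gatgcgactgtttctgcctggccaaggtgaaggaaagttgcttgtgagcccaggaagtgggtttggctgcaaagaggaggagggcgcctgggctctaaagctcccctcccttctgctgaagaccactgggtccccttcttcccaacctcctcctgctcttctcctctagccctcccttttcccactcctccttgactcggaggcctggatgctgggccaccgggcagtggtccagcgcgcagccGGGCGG
Slc17a7: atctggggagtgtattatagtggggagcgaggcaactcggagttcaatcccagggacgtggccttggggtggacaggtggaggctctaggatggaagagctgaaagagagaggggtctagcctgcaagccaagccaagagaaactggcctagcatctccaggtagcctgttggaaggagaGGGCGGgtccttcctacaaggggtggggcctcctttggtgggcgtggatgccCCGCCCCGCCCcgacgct

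The table held an entry for 21 of the 30 members. Gria1, Gria3, Grin2a, Grin2b, Grin3a, Grik1, Grid1, Grm4 and Grm5 had none. A GC box stood in the window of 8 of the 10 lower members with an entry, of 0 of the 3 higher members and of 4 of the 6 members that did not pass. These counts include windows under annotated exons. Of the 3 higher members, the window of Grin2d lay wholly and that of Grik2 to 76% under exons, and only that of Gria4 was clear. Among lower members, windows of Grm8, Grik4 and Slc1a1 lay to up to 49.6, 48.8 and 34.4% under exons. Of all genes tested with an entry, 62.1% of 12050 held one, and the share was 70.9% of the genes lower and 56.7% of the genes higher in dcKO_hGFAP-Cre cortex. The window of Grm2 held 3 GC boxes and that of Slc17a7 held 3, of which 2 overlap in 1 run. Those of Grm7 and Grm3 held 1 each and that of Gria4 none. The E-box CAGATG, the form bound by factors of the NeuroD class, stood in the window of 1 lower member, 1 that did not pass and none of the higher members, against 12.3% of genes tested. Of the 2 members under the filter, Grin3b held that E-box and also the TATA box TATAAA, which stood in no other member and in 8.19% of genes tested. The cAMP response element TGACGTCA stood in none, against 2.92%. All motifs were searched on both strands. Such matches describe these letters in these windows only.

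AMPA receptors carry the fast excitatory current and are built of the subunits GluA1 to GluA4 (Gria1 to Gria4). Gria1 (chr11:57011387-57330244, plus strand, mm10) was at 247, 255, 262 and 231 CPM in control replicates 1 to 4 and at 348, 330.2, 276 and 342 CPM in dcKO_hGFAP-Cre replicates 1 to 4. Each dcKO_hGFAP-Cre sample lay above each control sample, and the log2 fold change was 0.38 (SE 0.09, adjusted p = 0.00416). Gria4 (chr9:4417896-4796234, minus strand), known for its expression in interneurons among other cells, was at 78.8, 81.3, 72.4 and 70.9 CPM in control and 100, 100.2, 88.4 and 103 CPM in dcKO_hGFAP-Cre samples. It was 1.29-fold higher, again without overlap (log2 fold change 0.37, SE 0.08, adjusted p = 0.00346). For both genes replicate 3 was the lowest of the dcKO_hGFAP-Cre samples.

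Gria2, whose edited subunit makes the channel impermeable to calcium, was at 496, 465, 342 and 377 CPM in control and 542, 450.4, 401 and 671 CPM in dcKO_hGFAP-Cre samples. The groups overlapped and the log2 fold change of 0.30 (SE 0.17) did not pass (adjusted p = 0.191). Gria3 ranged from 79.0 to 102 CPM in control and from 70.1 to 91.7 CPM in dcKO_hGFAP-Cre samples, with a log2 fold change of -0.23 (SE 0.10, adjusted p = 0.104).

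Levels of different genes were compared as CPM per kilobase of exon. On that scale Gria1 led the AMPA genes in control cortex with 41.2 ± 2.27, followed by Gria2 with 27.0 ± 4.67, Gria4 with 12 ± 0.793 and Gria3 with 9.21 ± 1.02 (SD, n = 4 each). With the longest annotated transcript as the length, Gria2 stood at 40.5 beside 44.8 for Gria1, and Gria3 at 17.4 above Gria4 at 13.9, so that the order of Gria3 and Gria4 depends on the length used. Within each sample Gria3 made up 9.81 to 10.8% of the AMPA counts per kilobase in control and 6.46 to 7.68% in dcKO_hGFAP-Cre samples. The groups did not overlap in that share, while the shares of Gria1, Gria2 and Gria4 overlapped. The log2 ratio of Gria1 to Gria2 was 0.62 ± 0.27 in control and 0.71 ± 0.23 in dcKO_hGFAP-Cre samples (SD, n = 4 each), a difference of less than the spread between samples.

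NMDA receptors need the obligatory subunit GluN1 (Grin1) and take up GluN2 or GluN3 subunits, which set their kinetics. Grin2a (chr16:9567898-9995560, minus strand) showed the largest fall of all members. It was at 25.4, 31.2, 18.7 and 20.7 CPM in control and at 6.03, 9.15, 11.7 and 7.64 CPM in dcKO_hGFAP-Cre samples. All 4 dcKO_hGFAP-Cre samples lay below all control samples, and the gene was 2.76-fold lower (log2 fold change -1.47, SE 0.21, adjusted p = 0.000325). Grin2b (chr6:135713233-136173511, minus strand) was at 390.0, 471, 420.2 and 382 CPM in control and 245, 212, 243 and 307 CPM in dcKO_hGFAP-Cre samples. It was lower by 0.72 on the log2 scale (log2 fold change -0.72, SE 0.11, adjusted p = 0.000354), and replicate 4 was the highest mutant sample. Grin2d (chr7:45831883-45878378, minus strand), whose subunit gives slow currents and is enriched in interneurons and subcortical neurons, moved the other way. It was at 42.4, 40.2, 41.1 and 39.9 CPM in control and 57.1, 78.2, 48.3 and 74.1 CPM in dcKO_hGFAP-Cre samples. The mutant samples were more spread than the control samples but lay above all of them (log2 fold change 0.66, SE 0.13, adjusted p = 0.00247).

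Grin1 was at 133, 131, 156 and 160.5 CPM in control and 114, 101, 100.3 and 133 CPM in dcKO_hGFAP-Cre samples. It passed the test (log2 fold change -0.37, SE 0.11, adjusted p = 0.0156), although mutant replicate 4 lay within the range of the control samples. Without control replicate 3 its adjusted p was 0.0507. Grin2c, typical of the adult cerebellum, was low at 1.29 to 3.36 CPM in control and 2.25 to 4.45 CPM in dcKO_hGFAP-Cre samples (log2 fold change 0.28, SE 0.30, adjusted p = 0.48). Grin3a, the GluN3 subunit of the young cortex, ranged from 142 to 167 and from 113 to 158 CPM (log2 fold change -0.23, SE 0.11, adjusted p = 0.115). Grin3b fell under the filter with 3 to 14 counts per sample, at most 0.451 CPM.

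Per kilobase Grin2b with 16.7 ± 1.62, Grin1 with 15.0 ± 1.57 and Grin3a with 12.4 ± 0.984 led the NMDA genes in control cortex, above Grin2d with 6.14 ± 0.168 and Grin2a with 1.34 ± 0.310 (SD, n = 4 each). With the longest transcript as the length Grin1 stood first at 33.9, above Grin3a at 20.4 and Grin2b at 17.3.

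The GluN2 genes differed in composition between the groups. Within a sample Grin2b made up 65.0 to 69.4% of their counts per kilobase in control and 40.1 to 53.4% in dcKO_hGFAP-Cre samples. The share of Grin2d was 22.1 to 26.4% in control and 39.7 to 55.3% in mutant samples, and that of Grin2a was 4.27 to 6.36% and 1.71 to 3.58%. None of these 3 shares overlapped between the groups. The log2 ratio of Grin2d to Grin2b was -1.44 ± 0.15 in control and -0.08 ± 0.38 in dcKO_hGFAP-Cre samples (SD, n = 4 each), a difference of 1.36, and in mutant replicate 2 Grin2d exceeded Grin2b per kilobase at 0.46. Which of them is higher in mutant cortex depends on the length used. The mutant means were 9.68 for Grin2d and 10.1 for Grin2b per kilobase of exon, and 11.9 and 10.5 with the longest transcript. The log2 ratio of Grin2b to Grin2a was 3.67 ± 0.27 in control and 4.42 ± 0.52 in mutant samples (SD, n = 4 each), with overlap. A difference of such ratios between groups does not change with the gene length used or with the scaling of the libraries.

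**Figure D3:**
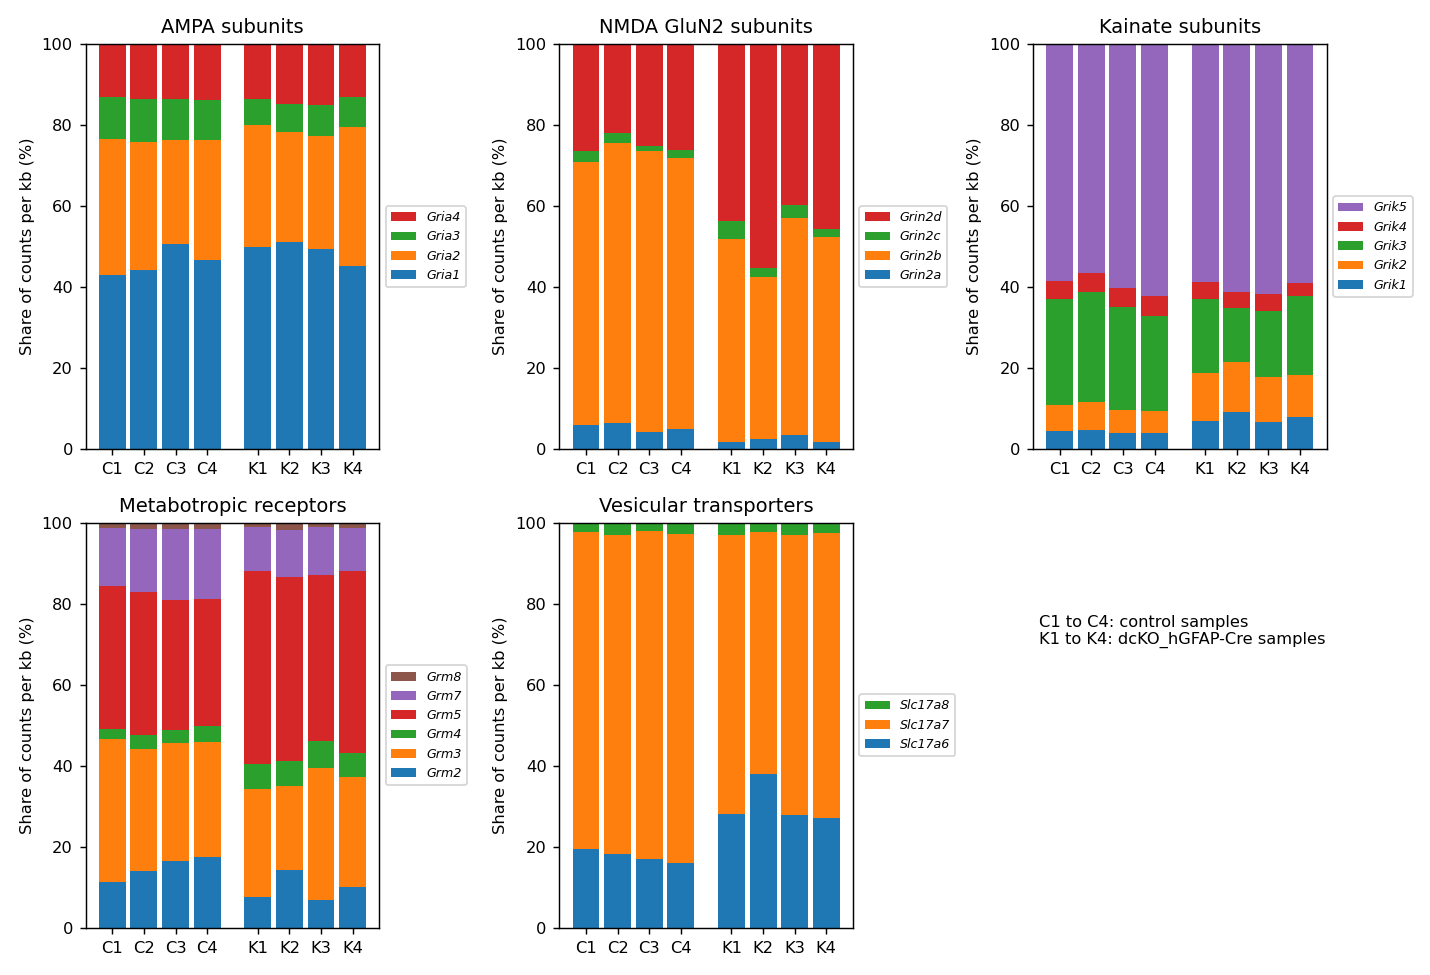
Share of each gene in the counts per kilobase of its family (percent, stacked bars to 100) in each control (C1 to C4) and dcKO_hGFAP-Cre (K1 to K4) sample. The share of Grin2d among the GluN2 genes was 22.1 to 26.4% in control and 39.7 to 55.3% in dcKO_hGFAP-Cre samples. That of Slc17a6 among the vesicular transporters was 16.0 to 19.4% and 27.2 to 37.9%. The level of Grin2d was called higher, whereas that of Slc17a6 did not pass and that of Slc17a7 was lower.

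Kainate receptors are built of low-affinity subunits (Grik1 to Grik3) that can form channels alone and of high-affinity subunits (Grik4 and Grik5) that need a low-affinity partner. Grik2 (chr10:49094833-49788766, minus strand) showed the largest rise of all members. It was at 82.8, 80.3, 68.0 and 65.0 CPM in control and at 141, 142, 115 and 139.7 CPM in dcKO_hGFAP-Cre samples. The groups were apart, with mutant replicate 3 the lowest, and the gene was 1.82-fold higher (log2 fold change 0.86, SE 0.10, adjusted p = 5.65e-05). Grik1 (chr16:87895900-88290265, minus strand), known for its expression in interneurons, was at 29.4, 27.4, 25.4 and 25.0 CPM in control and 41.3, 53.5, 34.7 and 53.7 CPM in dcKO_hGFAP-Cre samples. It was 1.71-fold higher without overlap (log2 fold change 0.77, SE 0.13, adjusted p = 0.000904). Grik3 (chr4:125490700-125714173, plus strand) fell instead, from 231, 211, 209.8 and 191 CPM in control to 146, 105, 114 and 174 CPM in dcKO_hGFAP-Cre samples. The log2 fold change was -0.64 (SE 0.14, adjusted p = 0.00415).

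Grik4 was at 26.2, 24.9, 25.3 and 25.8 CPM in control and 22.1, 20.3, 20.1 and 20.1 CPM in dcKO_hGFAP-Cre samples, a small fall without overlap (log2 fold change -0.31, SE 0.09, adjusted p = 0.0148). With library totals in place of TMM scaling its log2 fold change was -0.19 and its adjusted p 0.108. Grik5 was at 296, 253, 287 and 293 CPM in control and 271, 276, 249 and 308 CPM in dcKO_hGFAP-Cre samples, with overlap and a log2 fold change of -0.03 (SE 0.08, adjusted p = 0.793). Its sign turned to 0.09 with library totals. Per kilobase Grik5 led the family in control cortex with 54.6 ± 3.78, above Grik3 with 23.5 ± 1.82 and Grik2 with 5.59 ± 0.667 (SD, n = 4 each). Grik4 with 4.28 ± 0.0917 and Grik1 with 3.99 ± 0.306 were within the spread of each other, and with the longest transcript as the length Grik1 stood at 7.33 above Grik4 at 4.34. The share of Grik2 in the counts per kilobase of the family was 5.40 to 6.98% in control and 10.5 to 12.3% in mutant samples, that of Grik1 was 4.08 to 4.68% and 6.61 to 9.11%, and that of Grik3 was 23.5 to 27.1% and 13.5 to 19.3%.

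Grid1 encodes the delta receptor GluD1, which acts as a synaptic adhesion and organising protein. It was at 82.6, 80.2, 90.8 and 77.1 CPM in control and 54.6, 48.2, 53.1 and 53.0 CPM in dcKO_hGFAP-Cre samples. The mutant samples were close to each other and below all control samples (log2 fold change -0.66, SE 0.08, adjusted p = 7.62e-05).

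Among the metabotropic receptors, group II (Grm2 and Grm3) and group III (Grm4, Grm6, Grm7 and Grm8) couple to the inhibition of adenylyl cyclase, and Grm5 of group I to phospholipase C. Grm2 (chr9:106643095-106656082, minus strand), an autoreceptor, was at 42.5, 54.7, 60.3 and 63.0 CPM in control and 18.2, 25.4, 17.4 and 24.5 CPM in dcKO_hGFAP-Cre samples. It was 2.58-fold lower without overlap (log2 fold change -1.37, SE 0.15, adjusted p = 4.98e-05). Grm3, found in glia as well as in neurons, was at 82.1, 72.8, 65.5 and 64.6 CPM in control and 40.2, 22.9, 52.0 and 40.9 CPM in dcKO_hGFAP-Cre samples. The fall was without overlap (log2 fold change -0.87, SE 0.21, adjusted p = 0.00969), and mutant replicate 3, the one with high Gfap, had the highest mutant value. The part of astrocyte RNA in the level of Grm3 was not tested.

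Grm7 (chr6:110645581-111567230, plus strand), the presynaptic receptor of the active zone, had the smallest adjusted p of all members. It was at 64.6, 72.7, 76.7 and 75.6 CPM in control and 31.2, 25.0, 36.7 and 30.3 CPM in dcKO_hGFAP-Cre samples. It was 2.35-fold lower (log2 fold change -1.23, SE 0.11, adjusted p = 8.57e-06), with every mutant sample under the lowest control sample. Grm8, another presynaptic receptor, was at 10.9, 12, 11.5 and 12.4 CPM in control and 5.09, 6.40, 5.36 and 6.85 CPM in dcKO_hGFAP-Cre samples (log2 fold change -0.98, SE 0.13, adjusted p = 0.000153). Here too the groups did not overlap.

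Grm5, the postsynaptic receptor of young projection neurons and glia, was at 274, 286, 243 and 237 CPM in control and 240.2, 169, 218 and 229 CPM in dcKO_hGFAP-Cre samples. Replicate 1 of the mutant lay within the control range and the log2 fold change of -0.28 (SE 0.11) did not pass (adjusted p = 0.0576). It passed without the filter on low counts (adjusted p = 0.0316), without mutant replicate 1 (log2 fold change -0.35, at the limit) and in DESeq2 (adjusted p = 0.0447). DESeq2 made more false calls than edgeR on simulated data. Those data were drawn with the spread and scaling that edgeR had estimated, so they cannot decide between the tools here. Grm4 ranged from 11.3 to 17.1 CPM in control and from 13.3 to 20.7 CPM in mutant samples (log2 fold change 0.23, SE 0.15, adjusted p = 0.255). Grm6, the receptor of retinal bipolar cells, was under the filter: it had 1 count in 1 control sample, 3 to 4 counts in 3 mutant samples and 0 in the others, where 0 counts allow a level of up to 0.0996 to 0.138 CPM.

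Per kilobase Grm5 with 25.4 ± 2.34 and Grm3 with 23.4 ± 2.65 led the metabotropic receptors in control cortex and were within the spread of each other, as were Grm7 with 12.3 ± 0.926 and Grm2 with 11.3 ± 1.86 (SD, n = 4 each). With the longest transcript as the length Grm5 stood at 32.3 above Grm3 at 23.4, and Grm7 at 17.2 above Grm2 at 11.7. In dcKO_hGFAP-Cre cortex, on the exon scale, Grm5 was at 20.9 and Grm3 at 12.8. The log2 ratio of Grm3 to Grm5 was -0.12 ± 0.10 in control and -0.76 ± 0.34 in mutant samples (SD, n = 4 each), without overlap. The share of Grm5 in the family was 31.2 to 35.3% in control and 40.9 to 47.7% in mutant samples.

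The vesicular transporters fill vesicles with glutamate and differ in use between excitatory neurons. Both Slc17a6 and Slc17a7 were present in control cortex, and which cells held them was not tested. Slc17a7 (chr7:45163949-45176142, plus strand) was at 228, 224, 247 and 241 CPM in control and 125, 123, 124 and 167 CPM in dcKO_hGFAP-Cre samples. Mutant replicates 1 to 3 were nearly equal and replicate 4 was higher, and all were below the control samples (log2 fold change -0.80, SE 0.10, adjusted p = 0.0001). Slc17a6 (chr7:51622006-51671119, plus strand) was at 56.4, 51.8, 51.9 and 47.4 CPM in control and 50.9, 78.3, 50.3 and 64.8 CPM in dcKO_hGFAP-Cre samples. Replicates 2 and 4 of the mutant were above and replicates 1 and 3 within the control range, so that the log2 fold change of 0.24 (SE 0.13) did not pass (adjusted p = 0.177). With library totals it was 0.35 (adjusted p = 0.0499). Per kilobase Slc17a7 with 43.6 ± 2.04 led the vesicular transporters in control cortex, above Slc17a6 with 9.61 ± 0.678 (SD, n = 4 each). The log2 ratio of Slc17a6 to Slc17a7 per kilobase was -2.18 ± 0.15 in control and -1.16 ± 0.33 in dcKO_hGFAP-Cre samples (SD, n = 4 each), a difference of 1.03 without overlap. It was highest in mutant replicate 2 at -0.66.

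Slc17a8 (VGLUT3), used by scattered neurons that release a second transmitter beside glutamate, was at 5.71, 7.94, 5.84 and 7.05 CPM in control and 4.96, 3.94, 4.88 and 5.37 CPM in dcKO_hGFAP-Cre samples. It passed (log2 fold change -0.47, SE 0.16, adjusted p = 0.0365) but lost the call in 8 of 17 alternative settings, 5 of which leave out libraries. In those that leave out 1 library the adjusted p was 0.11 without control replicate 2, 0.0879 without control replicate 4, 0.0658 without mutant replicate 1 and 0.0957 without mutant replicate 2. Slc1a1 (EAAC1), the glutamate and cysteine transporter of neurons, was at 52.7, 64.5, 61.0 and 64.2 CPM in control and 35.6, 36.8, 36.7 and 45.5 CPM in dcKO_hGFAP-Cre samples. The groups were apart (log2 fold change -0.65, SE 0.10, adjusted p = 0.000471).

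The auxiliary subunits among the members did not pass. Cnih2, which carries AMPA receptors to the surface and slows them, had the highest level per kilobase of all members, 316 ± 27.2 in control and 313 in mutant cortex. It was at 407, 398, 448 and 478 CPM in control and 395, 461, 459 and 399 CPM in dcKO_hGFAP-Cre samples (log2 fold change -0.02, SE 0.08, adjusted p = 0.897). Cacng8 (TARP gamma-8) was at 38.6, 37.3, 45.0 and 41.8 CPM in control and 29.8, 38.1, 35.5 and 44.3 CPM in mutant samples (log2 fold change -0.14, SE 0.12, adjusted p = 0.367). In both genes the groups overlapped.

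Over 5% of the exon bases of 6 members are shared with a gene on the other strand. These are Slc1a1 (31.9%, 4430402I18Rik), Grin3b (32.1%, Tmem259), Grin1 (13.5%, Grin1os), Grm6 (11.1%, Gm12660), Grin2d (9.66%, Gm45441) and Grm2 (9.6%, Gm28111). Strand use in the counting is not given in the sources used here. Without it, reads of the 2 genes cannot be told apart there, and the part of these neighbours in the values was not tested.

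In the related genes of the synapse, 20 of 41 (48.8%, against 37.5% of all genes) passed, 1 higher and 19 lower. These lists too were chosen with earlier results of these data known. Of 13 other auxiliary subunits of AMPA and kainate receptors, 7 passed, 6 of them lower, with a median log2 fold change of -0.23 over the list. The largest falls were in Shisa6 (log2 fold change -1.37, SE 0.11, adjusted p = 5.22e-06), which slows AMPA receptor desensitisation, in Cnih3 (-1.19, SE 0.09), a relative of Cnih2, and in Gsg1l (-1.04, SE 0.15), which dampens AMPA currents. Cacng5 (TARP gamma-5) alone rose, from 17.6 to 19.7 CPM in control to 31.6 to 52.1 CPM in mutant samples (log2 fold change 1.27, SE 0.14). Frrs1l, needed to assemble AMPA receptors, was lower by less (-0.38, SE 0.13), with overlap.

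Of 18 postsynaptic scaffold genes, 10 were lower and none higher, with a median of -0.28. Shank2 (log2 fold change -0.84, SE 0.09), Homer2 (-0.77, SE 0.10), Dlgap1 (-0.71, SE 0.08), Dlg2 (-0.62, SE 0.09) and Grip2 (-0.50, SE 0.11) had the largest falls, the last of these anchoring AMPA receptors and Homer2 linking group I metabotropic receptors to Shank proteins. Dlg4, the gene of PSD-95, was at 603 to 717 CPM in control and 584 to 658 CPM in mutant samples and did not pass (log2 fold change -0.10, SE 0.07). Of 10 genes of glial uptake and the glutamate-glutamine cycle, 3 were lower and none higher, with a median of -0.40, and the 30% called lay under the 37.5% of all genes. These were the glutamine transporters Slc38a3 (log2 fold change -1.33, SE 0.33) and Slc38a2 (-0.41, SE 0.09) and the astrocyte glutamate transporter Slc1a2 (-0.56, SE 0.19). Slc1a2 was at 301 CPM and Slc38a3 at 64.2 CPM in mutant replicate 3, the sample with high Gfap, against 156 to 202 and 20.6 to 32.2 CPM in the other mutant samples.

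**Figure D4:**
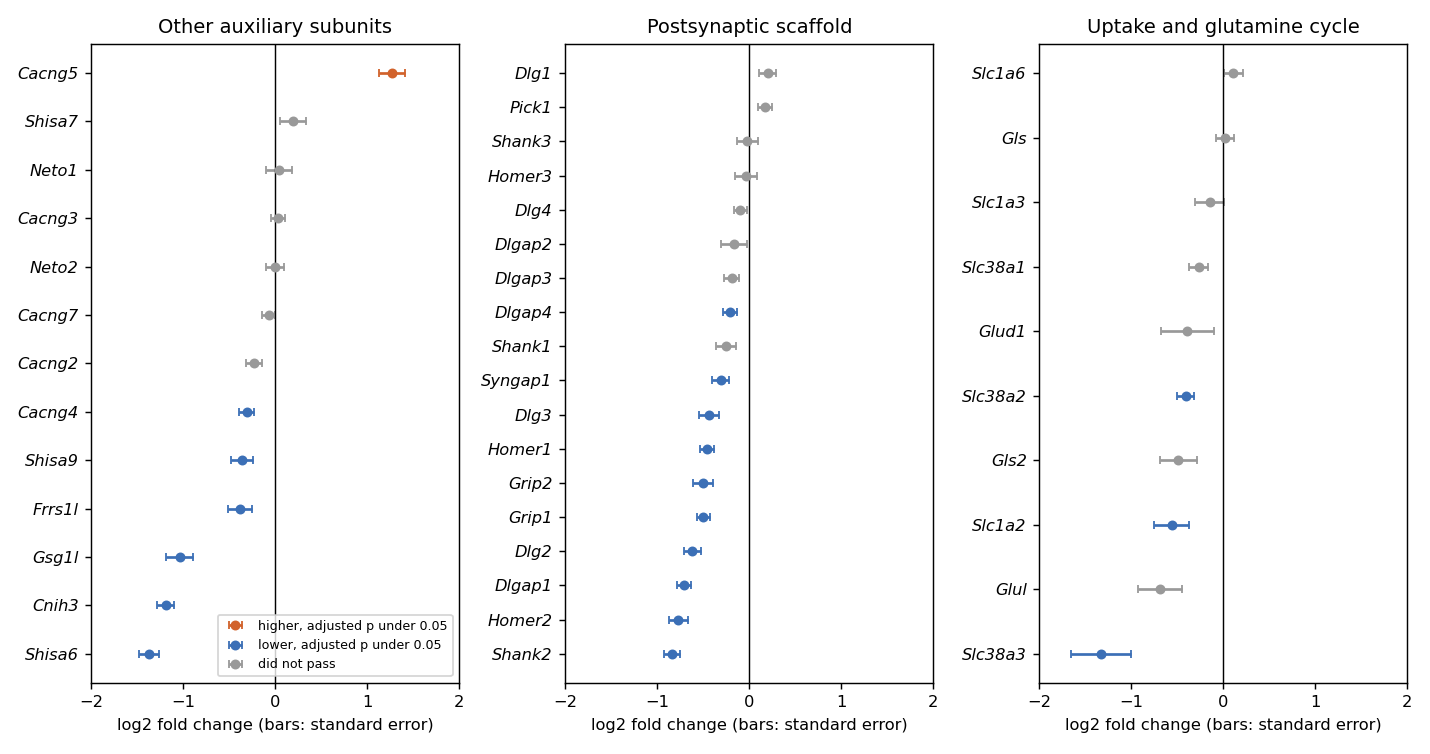
log2 fold change of related synapse genes, dcKO_hGFAP-Cre over control, with its standard error, in 3 panels for other auxiliary subunits, postsynaptic scaffold and glutamate uptake and cycling. In all panels the genes that passed are lower, apart from Cacng5 at 1.27.

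Marker genes of cell types moved in the same samples, where 37.5% of all genes were called, 18.6% higher and 18.9% lower. The marker lists were also chosen with earlier results known. Of 8 markers of dorsal telencephalon and cortical projection neurons 6 were lower, beside the falls of 13 members, Slc17a7, Grin2a, Grin2b, Grm2 and Grm7 among them. The summed level of these markers was 1520 to 1620 CPM in control and 967 to 1080 CPM in dcKO_hGFAP-Cre samples. Emx1 (log2 fold change -2.13) and Neurod6 (-2.04) fell most of these 8, while Tbr1 (0.07) and Bcl11b (0.13) did not pass. Of 8 markers of GABAergic interneurons 7 were higher, with a summed level of 596 to 614 CPM in control and 914 to 994 CPM in mutant samples. The 5 members that rose beside them were Grik2, Grik1, Grin2d, Gria1 and Gria4. Striatal markers were higher in 5 of 8, at 285 to 358 and 423 to 757 CPM in sum. That separation rests on Ppp1r1b (log2 fold change 2.92), without which the sums of 248 to 309 and 147 to 415 CPM overlapped, and Drd1 (-0.17) and Foxp1 (-0.31) did not pass. For thalamus and midbrain, where Slc17a6 is the main vesicular transporter, 5 of 8 markers were higher and 2 lower, and the sums of 64.9 to 71.3 and 60.4 to 82.1 CPM overlapped. The mutant samples with the highest Slc17a6, replicates 2 and 4, had sums of 82.1 CPM, above every control sample, and 63.0 CPM, below every control sample. The 2 lower markers, Prkcd (means of 37.9 and 19.0 CPM) and Rora (21.1 and 15.4 CPM), had the highest levels of the 8 in both groups and weigh most in the sums. Of the 5 higher markers, Lhx9 (log2 fold change 2.70) and Gbx2 (5.92) were highest in mutant replicates 2 and 4. Otx2 (5.15) and Barhl2 (1.66) were highest in replicates 1 and 2, the samples with high Ttr, and Tcf7l2 (0.60) in replicates 3 and 4. Gbx2 was at no more than 0.0493 CPM in control samples, under 3 counts, and at 1.09 to 1.95 CPM in mutant samples. Otx2 was at 0.0694 to 0.276 CPM in control and 3.07 to 13.6 CPM in mutant samples. The fold changes of Gbx2 and Otx2 thus rest on very low control levels. No marker was at 0 in all samples. The part of any of these cell types in the changes of the receptor and transporter genes was not tested.

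Of the other lists, oligodendrocyte precursor markers were lower in 5 of 5 (367 to 400 CPM in control and 220 to 295 CPM in mutant samples in sum). Microglia markers were higher in 4 of 6 (68.7 to 95.5 and 122 to 146 CPM). Cajal-Retzius markers were higher in 3 of 5, with sums that overlapped (259 to 439 and 372 to 513 CPM). Hippocampus markers were higher in 2 of 5 (128 to 162 and 180 to 215 CPM), and the 40% called lay near the 37.5% of all genes. None of 7 markers of astrocytes and radial glia and none of 4 of choroid plexus passed, with sums of 1500 to 1540 and 1050 to 2380 CPM and of 3.42 to 12.5 and 3.35 to 1150 CPM.

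**Figure D5:**
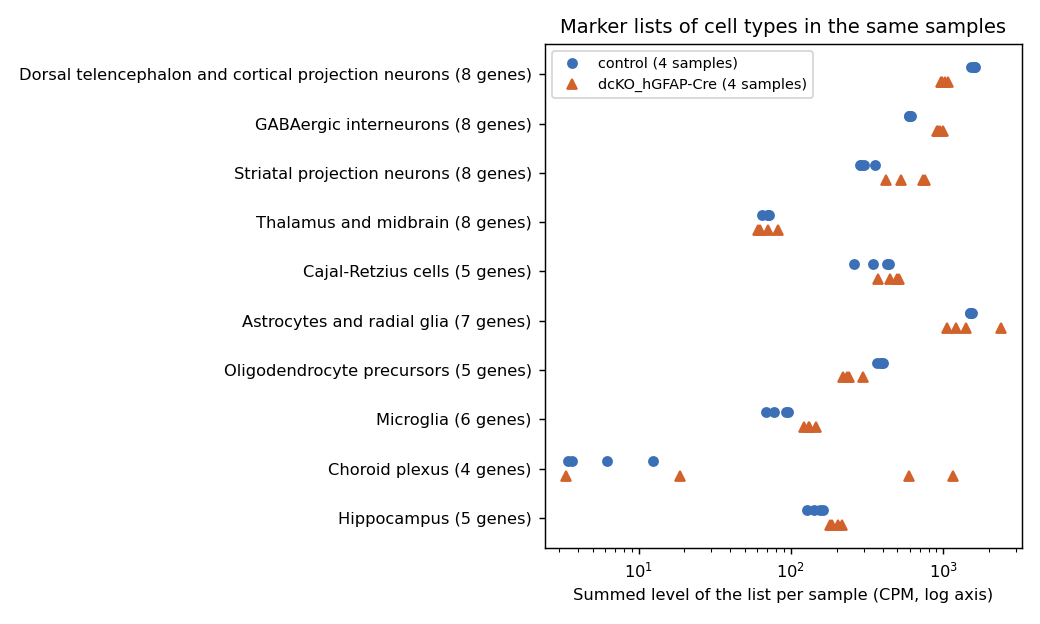
Summed level of each marker list per sample (CPM, log axis), with control samples as circles and dcKO_hGFAP-Cre samples as triangles. Markers of cortical projection neurons are at 1520 to 1620 CPM in control and 967 to 1080 CPM in dcKO_hGFAP-Cre samples, and interneuron markers at 596 to 614 and 914 to 994 CPM.

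The samples were sequenced on 3 lanes, with replicates 1 and 2 of each group together on lane 5 and the others on lanes 6 and 7. Since the groups did not overlap in 17 of the 18 called members, their direction within a lane was given by that, and lanes 6 and 7 held 1 sample of each group. The sizes differed between lanes. On lanes 5, 6 and 7 the log2 ratio of mutant to control CPM was -1.90, -0.67 and -1.44 for Grin2a, -1.16, -1.80 and -1.36 for Grm2 and -1.29, -1.06 and -1.32 for Grm7. It was 0.80, 0.75 and 1.10 for Grik2, 0.71, 0.23 and 0.89 for Grin2d, and -0.86, -1.0 and -0.53 for Slc17a7. The smallest ratios of called members were 0.07 for Gria1 on lane 6 (0.44 and 0.57 on lanes 5 and 7) and -0.13 for Grik3 on lane 7 (-0.82 and -0.87 on lanes 5 and 6). Grin1, whose groups overlapped, was at -0.29, -0.64 and -0.27. Without both mutant samples with high Ttr, 3 members were higher and 10 lower, Gria1 (log2 fold change 0.32, adjusted p = 0.078) and Gria4 (0.33, adjusted p = 0.0652) no longer passing on the remaining 2 mutant samples.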

How the data were processed

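RNA sequencing of 8 cortices at P3, 4 from dcKO_hGFAP-Cre and 4 control, was analysed, with groups from the labels. The authors deposited raw counts per Ensembl gene: libraries were made with the TruSeq RNA kit, and reads were aligned to mm10 and counted with featureCounts. The aligner, annotation and strand setting are not given in the sources used here. Symbols and exon lengths came from GENCODE M21 (48349 of 48709 genes matched). The main test was edgeR's quasi-likelihood F test (version 4.0.16, R 4.3.3, robust, TMM, minimum count 10), adjusted by Benjamini-Hochberg over 16525 genes. Each standard error is the log2 fold change over the root of its F value. Permutation tests ran over 70 arrangements. Per-kilobase levels used the union of exons. Alternatives were DESeq2 (version 1.42.0), limma-voom (limma 3.58.1), other scalings and filters, blocks and left-out libraries. The tests were tried on simulated data, where the limit first set for recovery was missed for noisy genes and replaced by checks of bias and calibration. No 2 libraries of a group agreed within sampling noise (chi-square per degree of freedom at least 9.45).

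Members that passed or were among the 10 highest per kilobase are given in every sample, as are some others, and of the related genes that passed up to 5 of the largest changes per list. Dlg4, Tbr1 and Bcl11b, the left-out pair of mutant samples with high Ttr, the striatal sum without Ppp1r1b and the longest transcript as length were chosen after seeing the data. The members and lists were chosen with earlier results of these data known. 1 marker of cortical projection neurons is not reported here and is left out of its list.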

Additional observations from a re-analysis of the deposited data

Results flagged for a closer look

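In 5 of 66 groups of 4 samples, 1 sample stood apart from the other 3 by a gap beyond the 95% limit of Dixon's test. Chance flags about 1 in 20 groups, here 3.3. All 5 were dcKO_hGFAP-Cre samples. Grik2 was lowest in replicate 3 at 115 CPM, against 139.7 to 142 CPM in the others. Slc17a7 was highest in replicate 4 at 167 CPM, against 123 to 125 CPM, and Slc1a1 was highest in the same sample at 45.5 CPM, against 35.6 to 36.8 CPM. Grik4 was highest in replicate 1 at 22.1 CPM, against 20.1 to 20.3 CPM. The log2 ratio of Slc17a6 to Slc17a7 was highest in replicate 2 at -0.66, against -1.37 to -1.30. Each of the 5 samples stayed on the same side of all control samples as the rest of its group.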

How the results depend on the processing

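Of the 18 called members, 12 were called in the same direction in all 17 alternatives, and the other 6 (Gria1, Gria4, Grin1, Grik4, Grm3 and Slc17a8) lost the call in at least 1 without a change of sign. The count of higher members was 5 in every alternative apart from library totals, which gave 6, and both mutant samples with high Ttr left out, which gave 3. With these 2 samples left out, 1388 of all genes were higher and 1581 lower, against 3074 and 3128, in a fit with 2 fewer samples. The count of lower members ranged from 10 to 15. With library totals 10 were lower, the median of all genes moved by 0.12 on the log2 scale, and 4579 genes were higher and 2108 lower, so that 68.5% of calls were higher against 49.6% with TMM. Leaving out 1 library gave 5 higher members each time and 12 to 15 lower members, with 2199 to 3308 higher and 2375 to 3273 lower genes overall.

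With the replicate number as a block, 5 members were higher and 12 lower, and 2932 and 2982 genes overall. Slc17a8 lost its call (log2 fold change -0.46, adjusted p = 0.0588). Deviations of same-numbered samples correlated at 0.17, -0.07, 0.21 and -0.02, so that the numbers were not taken as pairs. Not every sample correlated best with its own number.

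Grm3 lost its call without the filter on low counts (adjusted p = 0.0597), and Grin1 with library totals (-0.25, adjusted p = 0.0678). Gria3 (-0.31, adjusted p = 0.0253) and Grin3a (-0.32, adjusted p = 0.0121) were called without mutant replicate 4. The sign of Grik5 turned with library totals (0.09) and without mutant replicate 3 (0.01; -0.08 to 0.01 over all left-out libraries), and that of Cnih2 with library totals (0.11), with at least 10 counts in every sample (0.00) and without control replicate 4 (0.03) or mutant replicate 1 (0.02) or 4 (0.03; -0.06 to 0.03 over all left-out libraries). For these the cause was not tested. Low counts limit Grin3b and Grm6, which were not tested.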
